A study of Mus musculus with 12 samples.

Results

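Inhibitory nuclei that carried transcripts of the estrogen receptor gene Esr1 were followed in snRNA-seq of the left hippocampus of female mice. A nucleus was a member when it had 500 to 10000 detected genes, at least 1 unique molecular identifier (UMI, a counted RNA molecule) of Gad1 or Gad2, at least 2 UMIs of Esr1, no UMI of Slc17a7 or Slc17a6, no UMI of Rgs9 and fewer than 2 UMIs of Mobp. The rule kept 1323 of 184957 retained nuclei (0.715%), and 4.19% of the 31589 inhibitory nuclei that met its other conditions. Gad1 and Gad2 make GABA, Slc17a7 and Slc17a6 load glutamate into vesicles, Rgs9 marks striatal projection neurons and Mobp marks oligodendrocytes. The members were therefore chosen on measured counts of these 7 genes, and the levels of these genes are given only as a description.

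The study compared 3xTg-AD mice, which carry human APPSwe and tauP301L transgenes and a knock-in allele, with wild-type (WT) littermates. Each of the 12 libraries came from 1 female mouse, with 3 libraries for each of 3xTg-AD 6 months, WT 6 months, 3xTg-AD 12 months and WT 12 months. Nuclei were sorted by FACS before droplet capture, and the deposited counts precede the removal of ambient RNA. The libraries are named by the numbers 1 to 12 of their labels.

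Esr1 encodes estrogen receptor alpha, a transcription factor that is switched on by estradiol. Prlr encodes the prolactin receptor, which signals through Jak2 and Stat5, and Greb1 is a well-known target gene of estrogen receptor alpha. Neurons that carry these receptors together are best known from the preoptic area, the hypothalamus, the bed nucleus of the stria terminalis and the medial amygdala, where they take part in reproductive and parental behavior.

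Each library gave 78 to 154 members, with a median of 7271 to 12723 UMIs per member depending on the library. The other inhibitory nuclei, which met the same conditions but had no Esr1 UMI (28597 nuclei), had a median of 5981 to 8442 UMIs per library. No member barcode was a member in a second library, although 47 of the 1323 barcodes also occurred among the retained nuclei of another library. Over all retained nuclei, 4187 of 180722 distinct barcodes occurred in at least 2 libraries. Summed per library, members held 675914 to 1413867 UMIs, and levels below are CPM, the UMIs of a gene per 1000000 UMIs of the set of nuclei in a library.

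Detection of Prlr and Greb1 is given as a description, since both genes came with the label of the set and cannot check it. Gad2, a gene of the rule that was detected in 1247 members (94.3%), cannot check it either. Prlr was detected in 682 members (51.5%) and Greb1 in 252 (19.0%), so that most members had no Greb1 UMI at this depth. In oligodendrocytes (nuclei with at least 5 Mobp UMIs and none of the Gad or Slc17 genes), a cell type that should lack these genes, Prlr was detected in 2.77% and Greb1 in 0.367% of 7899 nuclei, at a median of 2377.5 to 3637.5 UMIs. After every nucleus was thinned to 2000 UMIs, Prlr remained in 28.5% of the members, 8.12% of the other inhibitory nuclei and 2.01% of the oligodendrocytes. The thinned shares cover all 1323 members, 27650 of the other inhibitory nuclei and 6164 of the oligodendrocytes, and shallower nuclei were left out.

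On the mouse genome build GRCm38, Esr1 lies on chr10:4611593-5005614, Prlr on chr15:10177238-10349180, Greb1 on chr12:16670615-16800886 and Gad2 on chr2:22622205-22693874. Esr1 stood at 255 to 496 CPM in the members, with a median of 378 over the 12 libraries. Of the 1323 members, 616 had exactly 2 Esr1 UMIs, 293 had 3 and 139 had 4. The nuclei just outside the rule, with 1 Esr1 UMI, numbered 1669. Prlr stood at 147 CPM in the lowest, 242 in the median and 292 in the highest library. In the other inhibitory nuclei it ranged from 38.2 to 67.9 CPM, with a median of 57.2, and no library of the members overlapped this range. Greb1 ranged from 15.5 to 73.5 CPM in members and from 3.28 to 5.66 CPM in other inhibitory nuclei. Prlr and Greb1 were given with the name of the set, and their levels were therefore not tested against other nuclei.

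**Figure D1:**
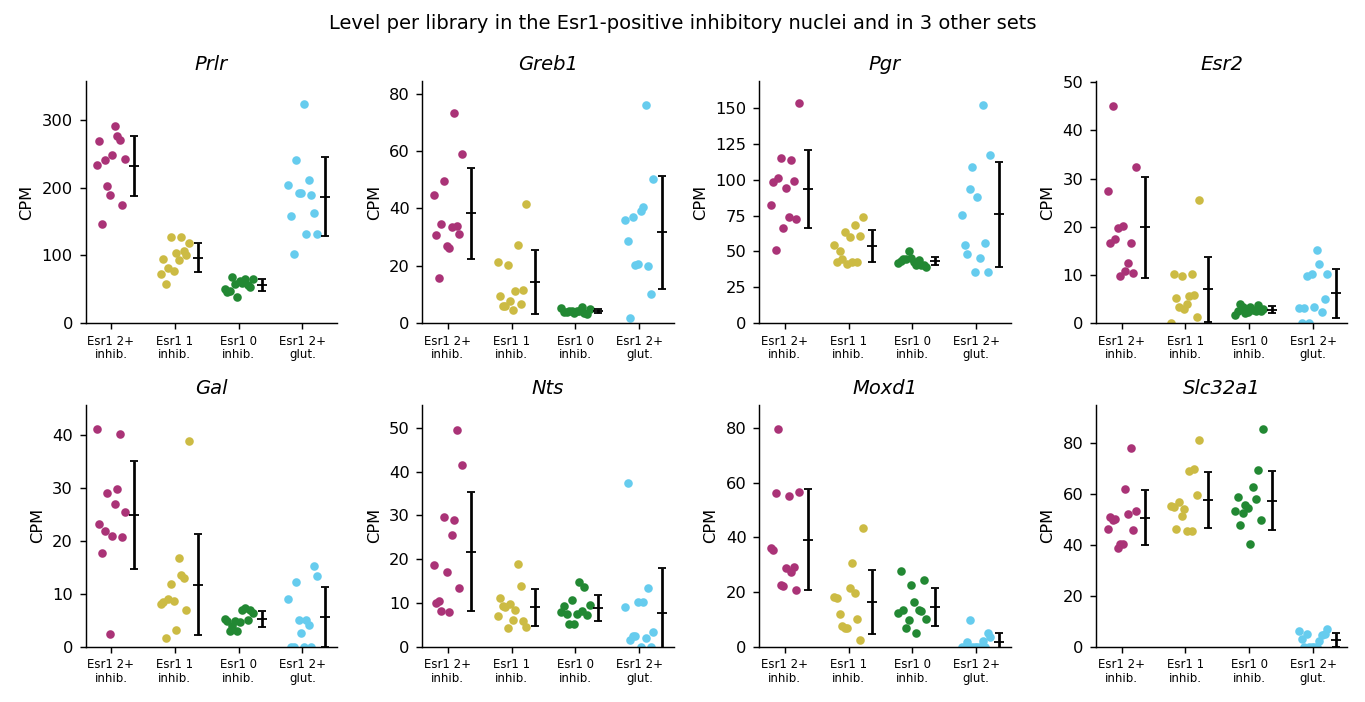
CPM (y axis, linear, from 0) of 8 genes in each of 12 libraries (points) for inhibitory nuclei with at least 2, exactly 1 and no Esr1 UMI and for glutamatergic nuclei with at least 2 Esr1 UMIs (x axis), with the mean and SD in black. Prlr ranged from 147 to 292 CPM in the members and from 38.2 to 67.9 CPM in inhibitory nuclei without Esr1, and Slc32a1 was low only in the glutamatergic set.

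The mean levels of Prlr, Greb1 and Pgr were higher at each larger number of Esr1 UMIs per nucleus, as a description with no test. Pgr encodes the progesterone receptor. For Prlr the mean over libraries was 55.6 CPM ± 8.96 (SD, n = 12) at 0 Esr1 UMIs and 96.4 ± 21.8 at 1 UMI. It was 175 ± 37.8 at 2 UMIs, 213 ± 49.9 at 3 to 4 UMIs and 382 ± 128 at 5 or more UMIs. Greb1 went from 4.21 CPM ± 0.734 at 0 UMIs to 14.4 ± 11.1 at 1, 28.8 ± 8.73 at 2 and 59.7 ± 32.8 at 5 or more. The nuclei just inside the rule (2 UMIs) thus stood between those just outside it (1 UMI) and those with the largest counts. Gad2 differed little across the steps, from 354 CPM ± 14.5 at 0 to 384 ± 71.0 at 5 or more UMIs. Gad1 had a lower mean at the last step, with 218 ± 11.3 CPM at 0 and 152 ± 53.3 CPM at 5 or more UMIs. So did Slc32a1, with 57.3 ± 11.5 and 40.9 ± 12.1 CPM. Meis2, a transcription factor of striatal and other forebrain inhibitory lineages, stood at 449 ± 81.3 CPM at the first and 89.7 ± 87.7 CPM at the last of these steps. Median depth also changed, from 6517 UMIs at 0 to 9791 UMIs at 5 or more Esr1 UMIs, and its part in these levels was not tested.

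**Figure D2:**
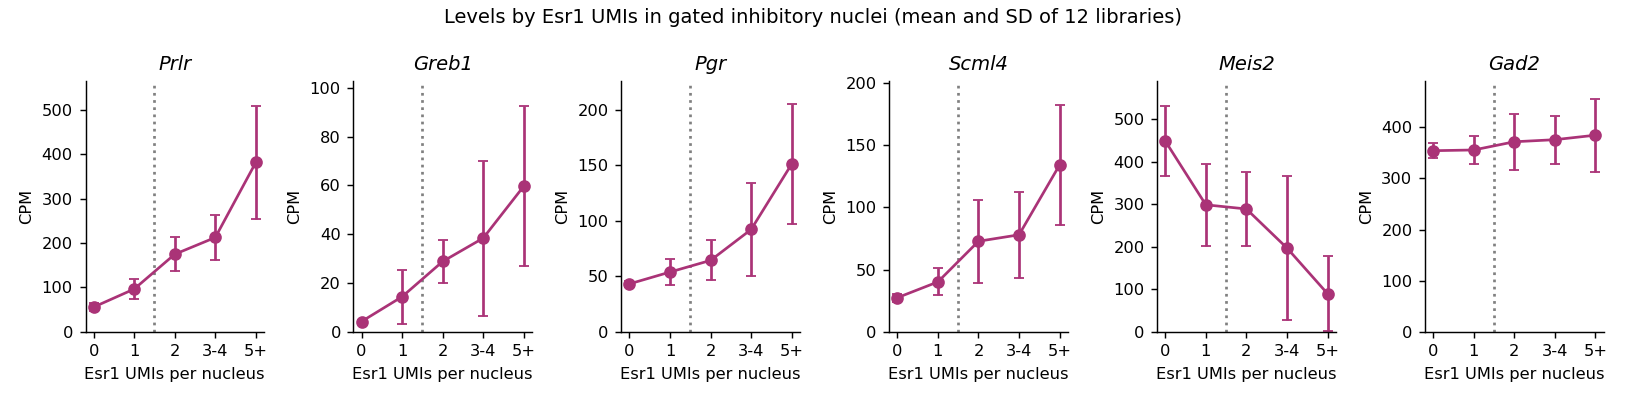
CPM (y axis, linear, from 0) of 6 genes by the number of Esr1 UMIs per nucleus (x axis) among inhibitory nuclei that met the other conditions, as mean and SD over 12 libraries. The dotted line is the limit of the rule. Prlr went from 55.6 to 382 CPM and Meis2 from 449 to 89.7 CPM, while Gad2 stayed between 354 and 384 CPM.

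Members and other inhibitory nuclei were then compared within the same libraries, to find what the Esr1-positive nuclei shared beyond the genes that chose them. A gene was called when its edgeR adjusted p was below 0.05 and its log2 fold change was beyond 1 in either direction. Of 15126 tested genes, 103 were higher (0.681% of the tested genes) and 285 lower (1.88%), with 2.57% called in either direction. The median log2 fold change of all tested genes was -0.00. The same sign in all 12 libraries was seen for 5.76% of the tested genes. An alternative chosen after the data were seen left out members with a UMI of any of 8 glial or vascular markers or with very high UMI counts. In this alternative 467 genes were lower. The other inhibitory nuclei were not filtered in this way, so that this count cannot show the part of glial RNA. Fewer nuclei with a gene and less RNA of that gene per nucleus cannot be told apart in these sums.

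Among 17 nuclear hormone receptor genes, 14 were tested, with Esr1 left out as a gene of the rule, of which 3 were higher, among them Pgr and Esr2, and 1 lower (Esrrb), with a median log2 fold change of -0.12. Pgr ranged from 51.1 to 153 CPM in members and from 39.2 to 50.5 CPM in other inhibitory nuclei, with a log2 fold change of 1.10 (SE 0.0916, edgeR adjusted p = 2.92e-10). Esr2, which encodes estrogen receptor beta, ranged from 9.79 to 45.2 CPM in members against 1.63 to 3.82 CPM, with a log2 fold change of 2.82 (SE 0.182, edgeR adjusted p = 2.07e-12). The members lay above the other inhibitory nuclei in 12 of 12 libraries for Pgr and Esr2. The glucocorticoid receptor gene Nr3c1 had a log2 fold change of 0.25 and the mineralocorticoid receptor gene Nr3c2 one of -0.55, both within the limit of 1. The orphan receptor gene Esrrb was lower, with a log2 fold change of -1.13 (edgeR adjusted p = 0.00174).

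Receptor genes were also counted within single nuclei. Among members with Prlr, 51.9% had a Pgr UMI, against 37.6% of members without Prlr. The corresponding shares for Greb1 were 26.0% and 11.7%. Members with and without Prlr had a median of 8693.5 and 8309 UMIs.

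Aromatase, the enzyme that makes estradiol from testosterone, is encoded by Cyp19a1, the single gene called among the 8 tested of 15 genes of steroid synthesis and metabolism. Cyp19a1 had a mean of 6.45 CPM in the members and 1.55 CPM in the other inhibitory nuclei, with a log2 fold change of 2.08 (SE 0.290, edgeR adjusted p = 2.63e-06) and a higher level in 11 of 12 libraries. In 1 library the members' level was 0, and in oligodendrocytes 0 of 7899 nuclei had a UMI. Among the 12 tested of 14 receptor coregulators no gene passed both limits, and their median log2 fold change was -0.03. In this list, Ncoa1 and Ncoa2, which bind activated steroid receptors, had log2 fold changes of 0.02 and -0.00.

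Of 18 genes of prolactin and cytokine receptor signaling, 16 were tested and 1 was called higher, and the list had a median log2 fold change of 0.16. This gene was Irs4, an adaptor of insulin receptor signaling, which was higher in 12 of 12 libraries with a log2 fold change of 1.62 (SE 0.223, edgeR adjusted p = 2.09e-06). Socs2, a feedback inhibitor of growth hormone and prolactin signaling, had a log2 fold change of 0.69 (edgeR adjusted p = 1.22e-06), below the limit of 1. Stat5b, a transcription factor activated downstream of Prlr, had one of 0.33 (edgeR adjusted p = 2.02e-05). Jak2, the kinase bound to Prlr, had one of 0.18 (edgeR adjusted p = 0.0389), and the growth hormone receptor gene Ghr one of 0.13 (edgeR adjusted p = 0.167).

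Neuropeptide genes were called in both directions. Of 32 neuropeptide genes, 21 were tested, 4 were higher (Gal, Tac2, Nts and Cartpt) and 3 lower (Vip, Avp and Gnrh1), with a median log2 fold change of 0.35. Gal, which encodes galanin, ranged from 2.45 to 41.1 CPM in members, with a median of 24.3, and from 2.90 to 7.35 CPM in other inhibitory nuclei. Its log2 fold change was 2.28 (SE 0.149, edgeR adjusted p = 2.37e-12), and members were higher in 11 of 12 libraries. Tac2, the neurokinin B gene, had a log2 fold change of 1.84 (edgeR adjusted p = 4.29e-09), and Nts, the neurotensin gene, one of 1.26 (edgeR adjusted p = 4.59e-07). Cartpt ranged from 1.22 to 46.7 CPM in members and was higher than in the other inhibitory nuclei in 7 of 12 libraries. Its call was lost with DESeq2 (log2 fold change 0.67, adjusted p = 0.204), without a filter on low counts (log2 fold change 0.97) and without replicate 2, 4 or 5 (0.94, 0.84 and 0.73). The Avp call was lost without the library block (edgeR adjusted p = 0.0781), and without replicate 4 or 9 its log2 fold change was -0.99 and -0.97. The interneuron peptide gene Vip had a log2 fold change of -1.68 (edgeR adjusted p = 0.000275). The 3 lower genes had low levels in both sets. Their means in members and in other inhibitory nuclei were 2.03 and 5.93 CPM for Vip, 3.47 and 7.28 CPM for Avp and 0.573 and 1.86 CPM for Gnrh1. Of 42 receptor genes for peptides and other signals, 36 were tested, with 4 higher (Npy2r, Ntsr1, Gabre and Gabrq) and 1 lower (Ednrb) and a median log2 fold change of 0.18. Gabre and Gabrq encode the epsilon and theta subunits of the GABA-A receptor, and their log2 fold changes were 1.999 and 1.43.

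The 10 genes with the largest log2 fold change among those at 20 CPM or more in the members included Gal, described above, and Gldn. Gldn, which encodes gliomedin, had a log2 fold change of 2.50 (SE 0.135, edgeR adjusted p = 3.40e-14). Scml4, a Polycomb-related gene, had one of 1.67 and AW551984 one of 1.58. Others among the 10 were Moxd1 with 1.51, Cadps2 with 1.47, the granzyme gene Gzmk with 1.46 and the neuronal peptidase gene Ecel1 with 1.31. Cadps2 and Baiap3, which both act in the release of dense-core vesicles, were among the 5 called genes with the smallest adjusted p that were higher in 12 of 12 libraries. Cadps2 stood at a mean of 508 against 181 CPM (edgeR adjusted p = 5.36e-18) and Baiap3 at 138 against 65.7 CPM (edgeR adjusted p = 9.93e-15). Scml4 and AW551984 were also among these 5 genes, and Scml4 had a mean of 89.1 against 27.4 CPM.

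Genes that were lower in the members included transcription factors of the telencephalon, the part of the brain that holds the hippocampus and the striatum. Of 24 telencephalic identity genes, 23 were tested, 4 were lower and 0 higher, with a median log2 fold change of -0.36. The lower genes included Meis2, Bcl11b and Sp8. Meis2 had a log2 fold change of -1.10 (SE 0.0829, edgeR adjusted p = 4.17e-11) and Bcl11b one of -1.08 (edgeR adjusted p = 1.06e-09). Some genes of the list that were not called went the other way. Nr2f2 had a mean of 41.4 CPM in members against 33.1 CPM and Zfhx3 785 against 654 CPM, both higher in 11 of 12 libraries. Foxp1 had 370 against 337 CPM, higher in 10 of 12. Of 30 hypothalamic identity genes, 18 were tested, with 0 higher and 2 lower (Sox14 and Nkx2-2) and a median of 0.04. The Nkx2-2 call (edgeR adjusted p = 0.024) was lost without WT replicate 4 (0.0501), WT replicate 7 (0.0522) or 3xTg-AD replicate 10 (0.0554). Genes of this list that were not called lay on both sides. Six3 had a mean of 14.6 CPM in members against 23.1 CPM, and Lef1 21.3 against 37.4 CPM. Members were at the higher level in 0 of 12 libraries for Six3 and 1 of 12 for Lef1. Some others had positive log2 fold changes within the limit of 1. These were 0.85 for Dlk1 (edgeR adjusted p = 9.07e-07) and 0.88 for Magel2 (6.95e-08), with members at the higher level in 12 of 12 libraries for both, and 0.98 for Peg10 (3.26e-06) and 0.53 for Nkx2-1 (0.0724), with 11 of 12 for both. Of the 5 interneuron markers, with a median of -0.42, Pvalb and Vip were lower, Pvalb with a log2 fold change of -2.90 (SE 0.223, edgeR adjusted p = 6.04e-11) and a mean of 1.76 against 12.6 CPM. Lamp5, of the same list, had a log2 fold change of 0.87 (SE 0.158, edgeR adjusted p = 0.000119), within the limit of 1, and was at a higher level in the members in 11 of 12 libraries. Sst had one of -0.42 (edgeR adjusted p = 0.0375) and Reln one of -0.03 (edgeR adjusted p = 0.843). Among the 17 tested of 19 genes of GABA synthesis, transport and release, no gene passed both limits, and their median log2 fold change was 0.06. The vesicular GABA transporter gene Slc32a1 ranged from 38.9 to 77.9 CPM in members and from 40.2 to 85.3 CPM in other inhibitory nuclei.

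Markers of glia were counted in the same nuclei. Of 4 astrocyte markers, 3 were lower in the members (Slc1a2, Gja1 and Aqp4), and of 3 precursor markers of the oligodendrocyte lineage, 2 were lower (Pdgfra and Vcan). The summed level of the 4 astrocyte markers was 284 to 831 CPM in members and 748 to 1099 CPM in other inhibitory nuclei, and none of them was at 0. The summed level of the 4 oligodendrocyte markers was 82.0 to 286 CPM against 121 to 353 CPM, and of the 4 microglia markers 41.4 to 68.4 against 42.6 to 63.3 CPM. The 5 vascular markers summed to 22.4 to 97.9 CPM in members and 38.8 to 88.1 CPM in other inhibitory nuclei, where 1 (Mecom) was lower in the members (edgeR adjusted p = 0.0414). The Mecom call was lost in 9 of 12 fits with 1 library left out (edgeR adjusted p up to 0.122) and without the library block (0.133). The smallest adjusted p among lower genes with the same sign in 12 of 12 libraries belonged to Rgs6, Ano1, Bcan, Sparcl1 and Prdm16. Bcan and Sparcl1 encode matrix proteins that glia make in quantity, and their log2 fold changes were -1.15 and -1.05. The median log2 fold change was -1.04 for the astrocyte, -1.35 for the precursor, -0.21 for the oligodendrocyte, 0.09 for the microglia and -0.50 for the vascular markers. Of 4 striatal markers 2 were tested and 1 (Ppp1r1b) was lower, with a median of -1.03, and the Ppp1r1b call was lost without the library block (edgeR adjusted p = 0.0685). Some calls lay close to the fold limit of 1. With 1 library left out, the log2 fold change of Slc1a2 came within it in 3 fits (-0.97, -0.99 and -0.95 without 3xTg-AD replicate 2, 6 or 9) and that of Aqp4 in 4 (-0.996, -0.978, -0.917 and -0.997 without 3xTg-AD replicate 5, 6, 9 or 10). The part of glial RNA in these differences was not tested.

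A second comparison asked which genes differed between the members and nuclei with at least 2 Esr1 UMIs that carried Slc17a6, had no UMI of Gad1, Gad2, Slc17a7 or Rgs9 and had fewer than 2 UMIs of Mobp (417 nuclei). These are called the glutamatergic nuclei here. Of 8066 tested genes, 42 were higher in the members (0.521%) and 70 lower (0.868%), with 1.39% called in either direction and 2.75% of the same sign in all 12 libraries. The 2 sets were chosen on Gad1, Gad2 and Slc17a6. Higher levels of genes of inhibitory neurons in the members, such as Slc32a1 and Dlx6os1, therefore follow from the choice and are only a description. Lower levels of genes that go with Slc17a6 follow from it in the same way. Which of the lower genes these are was not tested, so the lower genes are a description too. Slc32a1 was called higher, with a log2 fold change of 4.24 (SE 0.267, edgeR adjusted p = 1.39e-12). The gene Dlx6os1, an RNA of the Dlx locus of forebrain inhibitory neurons, had a log2 fold change of 4.98 (edgeR adjusted p = 4.95e-15), and Nrxn3 and Sox2ot had 2.42 and 2.90. Gm14204, which lies head to head with Slc32a1 on chromosome 2, had 4.70. Called lower were Tcf7l2, a factor of Wnt signaling that is abundant in the thalamus, with -2.70 (SE 0.112, edgeR adjusted p = 1.17e-16), and Cacna2d1, Pcsk2, Ntng1 and Tmem163, with -2.39, -1.63, -1.47 and -2.35. Of 16 tested telencephalic identity genes, 3 were higher in the members and 0 lower, with a median log2 fold change of 0.27. The 3 were Dlx6os1, Adarb2 and Sox6, the last 2 with log2 fold changes of 1.27 and 2.03. Since the sets were chosen on Gad1, Gad2 and Slc17a6, this count is a description and does not bear on the region of the nuclei. Of 7 tested hypothalamic identity genes, 0 were higher and 2 lower, among them Lef1 (-1.99), with a median of 0.45, and the same limit holds for this count.

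Among the 10 tested nuclear hormone receptor genes no gene passed both limits, with a median log2 fold change of 0.09. Pgr had a log2 fold change of 0.26 (edgeR adjusted p = 0.184). The 12 tested genes of prolactin and cytokine signaling had a median of -0.03, and none passed both limits. Prlr stood at 102 to 323 CPM in the glutamatergic nuclei, with a median of 190, and was detected in 50.8% of them. Greb1 ranged from 1.596 to 76.0 CPM there and Pgr from 35.5 to 152 CPM, so that both overlapped the members. Moxd1, by contrast, ranged from 20.7 to 79.5 CPM in the members and from 0 to 9.84 CPM in the glutamatergic nuclei. Tac2, called higher against the other inhibitory nuclei, had a mean of 16.2 CPM in members and 18.0 CPM in the glutamatergic nuclei. Gal, Nts and Cartpt went the other way, with 24.9, 21.7 and 14.7 CPM in members against 5.56, 7.67 and 7.39 CPM. Of the markers of glia and vessels, 1 was called in this comparison, the oligodendrocyte marker St18, with a log2 fold change of 1.95 (SE 0.273, edgeR adjusted p = 6.92e-06) and members higher in 12 of 12 libraries. St18 ranged from 18.4 to 126 CPM in members, from 0 to 95.9 CPM in the glutamatergic nuclei and from 41.8 to 90.9 CPM in the other inhibitory nuclei, so that its levels overlapped. The 4 oligodendrocyte markers together summed to 82.0 to 286 CPM in members and 53.8 to 332 CPM in the glutamatergic nuclei, with none at 0, and the part of glial RNA was not tested. The 4 astrocyte markers summed to 284 to 831 CPM against 763 to 1300.2 CPM. With 22 to 47 glutamatergic nuclei per library, precision was lower here than against the other inhibitory nuclei.

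The members were not uniform. Subsets of them were formed by at least 2 UMIs of a gene, with each subset described by the pooled CPM of its nuclei and with no test. The Moxd1 subset held 85 members (6.42%) from 12 libraries, and its Calb1, Gldn and Greb1 levels were 204, 177 and 114 CPM, against 54.6, 33.9 and 38.5 CPM over all members. The Gal subset held 58 members, with Esr1 at 518 CPM, Calcr at 214 CPM, Pgr at 187 CPM and Greb1 at 94.5 CPM. Calcr encodes the calcitonin receptor, which with galanin marks neurons of the preoptic area. Among the 63 members with a Calcr UMI, 23 also had a Gal UMI (36.5%), against 6.75% of those without Calcr.

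Nts and Moxd1 were rarely detected in the same nucleus, as 1 of 112 members with Nts had a Moxd1 UMI (0.893%), against 12.2% of the members without Nts. The Nts subset (56 members) had Pgr at 158 CPM and Moxd1 at 1.72 CPM. The Tac2 subset (46 members) had Nts at 61.9 CPM. Meis2 stood at 702 CPM in the Sst subset (51 members), 483 CPM in the Cartpt subset (26 members) and 459 CPM in the Penk subset (38 members), against 220 CPM over all members. The Esr2 subset (43 members) had Prlr at 449 CPM and Moxd1 and Gldn both near 165 CPM.

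A few subsets had low levels of Prlr. In the Lhx8 subset (33 members), Lhx8 being a factor of cholinergic and septal lineages, the acetylcholine-making gene Chat stood at 149 CPM, Prlr at 63.3 CPM and Esr1 at 224 CPM. In the Gata3 subset (28 members), Gata3 being a factor of midbrain and brainstem inhibitory neurons, Otx2os1 stood at 154 CPM and Tcf7l2 at 151 CPM. Prlr was at 69.2 CPM and Greb1 at 2.56 CPM in that subset, and Gal and Calcr were at 0. The 13 members with at least 2 Ghrh UMIs, from 6 libraries, had Greb1 at 259 CPM, Ghr at 1162 CPM and Prlr at 62.8 CPM. These subsets overlap, and each gene that formed a subset is high in it by construction.

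**Figure D3:**
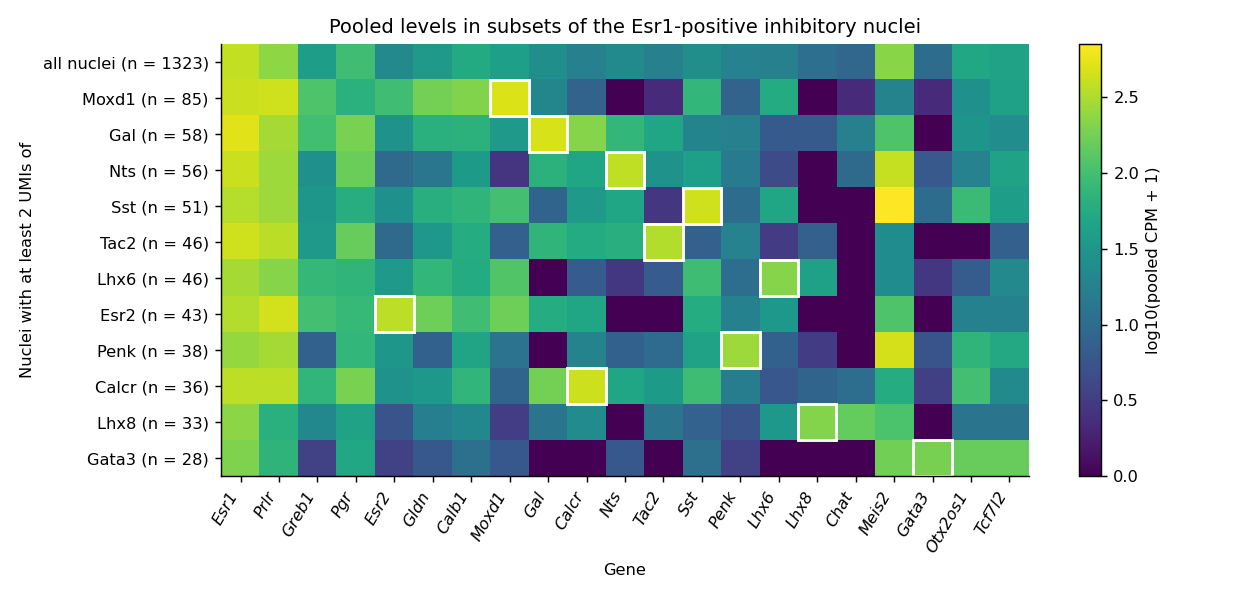
Pooled level (color, log10 of CPM plus 1) of named genes (x axis) in all 1323 members and in members with at least 2 UMIs of 1 gene (y axis, number of nuclei in brackets), where white frames mark the gene that formed the subset. Gldn and Calb1 were high in the Moxd1 subset, Calcr in the Gal subset and Chat in the Lhx8 subset.

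The share of members among retained nuclei was compared between genotypes and ages. In 3xTg-AD mice the share was 0.579%, 0.935% and 0.755% at 6 months and 0.664%, 0.567% and 0.777% at 12 months, for libraries 1, 5, 9 and 2, 6, 10. In WT mice it was 0.833%, 0.838% and 0.494% at 6 months and 0.693%, 0.688% and 0.758% at 12 months, for libraries 3, 7, 11 and 4, 8, 12. The groups overlapped, with a mean of 0.713% ± 0.139 (SD, n = 6) in 3xTg-AD and 0.717% ± 0.127 in WT libraries. The difference of -0.00453 percentage points was smaller than the spread between libraries (two-sided exact permutation within ages, p = 0.93, smallest possible 0.005). Between ages the mean was 0.691% ± 0.0750 at 12 months and 0.739% ± 0.169 at 6 months (two-sided exact permutation within genotypes, p = 0.57). The share of Gad-positive nuclei with Rgs9, a striatal marker, was 22.1% to 56.2% over the libraries, and its part in these shares was not tested.

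**Figure D4:**
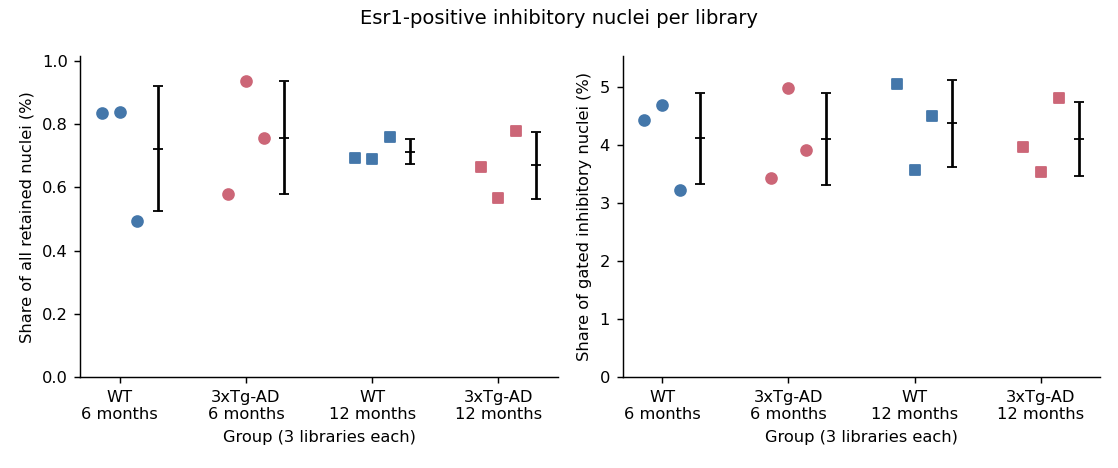
Share of members (y axis, percent, from 0) among all retained nuclei (left) and among inhibitory nuclei that met the other conditions (right) in 3 libraries of each group (points, x axis), with mean and SD in black. The groups overlap in both panels, at 0.494% to 0.935% of retained nuclei and 3.22% to 5.04% of inhibitory nuclei.

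Expression in the members was compared between 3xTg-AD and WT libraries at each age, where a call needed an adjusted p of edgeR below 0.05 and a log2 fold change beyond 0.2 in either direction. At 6 months, 10 genes were higher (0.0965%) and 14 lower (0.135%) in 3xTg-AD, which is 0.232% of 10367 tested genes. At 12 months, 2 were higher (0.0212%) and 3 lower (0.0318%), which is 0.053% of 9426 tested genes. The libraries of the 2 genotypes did not overlap for 12.3% of the tested genes at 6 months and 10.9% at 12 months. The call counts were sensitive to single libraries, as the 6-month fit gave 6 higher and 3 lower genes without 3xTg-AD replicate 5 and the 12-month fit gave 0 and 0 without 3xTg-AD replicate 2.

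Greb1 was the gene of the steroid and prolactin lists that was called at 6 months, and 13 of 14 coregulator genes, the list that holds it, were tested. In the members it stood at 15.5, 26.2 and 31.1 CPM in the WT libraries 3, 7 and 11 and at 44.8, 49.5 and 73.5 CPM in the 3xTg-AD libraries 1, 5 and 9. All 3xTg-AD libraries lay above all WT libraries, with a log2 fold change of 1.32 (SE 0.249, edgeR adjusted p = 0.0265). The call was lost with DESeq2 (adjusted p = 0.0536), in members with at least 3 Esr1 UMIs (edgeR adjusted p = 0.0834) and in members without glial or vascular marker UMIs (edgeR adjusted p = 0.0941). It was also lost without WT replicate 3 (edgeR adjusted p = 0.136) or 7 (0.0621) and without 3xTg-AD replicate 5 (0.0923) or 9 (0.18).

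At 12 months Greb1 stood at 34.7, 33.6 and 58.8 CPM in the WT libraries 4, 8 and 12 and at 30.9, 26.9 and 33.8 CPM in the 3xTg-AD libraries 2, 6 and 10. The groups overlapped, with a log2 fold change of -0.42 (edgeR adjusted p = 0.89). The difference between the genotype effects at the 2 ages was -1.73 on the log2 scale (SE 0.361), which did not pass the threshold (edgeR adjusted p = 0.285), although it did without a filter on low counts (edgeR adjusted p = 0.000403). For this difference 1 of 10562 tested genes was called (0.00947%), AC149090.1. Prlr ranged from 147 to 248 CPM in WT and from 203 to 277 CPM in 3xTg-AD at 6 months, with a log2 fold change of 0.35 (edgeR adjusted p = 0.681). At 12 months its log2 fold change was -0.04 (edgeR adjusted p = 0.991).

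App, Mapt and Thy1, whose mouse counts bear on the transgenes and their promoter, had log2 fold changes of 0.11, -0.13 and 0.24 at 6 months, none past the threshold. The human transgene transcripts were not analysed here.

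Among the genes that were called at 6 months with the smallest adjusted p and no overlap, Rnf152, a regulator of mTORC1 signaling, was higher. It stood at 68.1, 54.1 and 48.8 CPM in WT and at 146, 199 and 163 CPM in 3xTg-AD members, with a log2 fold change of 1.58 (SE 0.168, edgeR adjusted p = 9.21e-05). In the other inhibitory nuclei of the same libraries it ranged from 51.8 to 64.5 CPM in WT and from 202 to 245 CPM in 3xTg-AD. Pdzrn4 had a log2 fold change of 0.86 (edgeR adjusted p = 0.00132), with 593, 624 and 673 CPM in WT and 985, 1152 and 1210 CPM in 3xTg-AD members. Npas1, Pappa and Lef1 had log2 fold changes of 1.94, 1.603 and 2.31 (edgeR adjusted p = 0.00576 each). In members with at least 3 Esr1 UMIs the calls of Pdzrn4, Npas1, Pappa and Lef1 were lost (edgeR adjusted p = 0.0834, 0.0667, 0.29 and 0.0997). With all 12 libraries in 1 fit those of Pappa (edgeR adjusted p = 0.076) and Lef1 (0.276) were lost, and without glial or vascular marker UMIs that of Pappa (0.244). Npas1 is a transcription factor of inhibitory neurons, Pappa a protease that frees insulin-like growth factor, and Lef1 a factor of Wnt signaling. Npas1 is also on the telencephalic and Lef1 on the hypothalamic identity list, each the only called gene of its list here (20 and 10 tested). A different mix of members and changed expression within them cannot be told apart in these sums. Pappa ranged from 13.3 to 28.1 CPM in WT and from 55.2 to 87.1 CPM in 3xTg-AD members, against 23.4 to 28.2 CPM and 19.4 to 29.1 CPM in the other inhibitory nuclei. Whether the effect differed between members and other inhibitory nuclei was not tested.

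The lower genes were led by AC149090.1, which stood at 611, 776 and 854 CPM in WT and at 219, 144 and 105 CPM in 3xTg-AD members at 6 months. Its log2 fold change was -2.25 (SE 0.187, edgeR adjusted p = 3.44e-06). In the other inhibitory nuclei it stood at 682, 855 and 948 CPM in WT and at 206, 180 and 123 CPM in 3xTg-AD, and the oligodendrocytes had 227, 283 and 293 CPM against 74.0, 59.3 and 43.7 CPM. Gm17167 was at 0 in all 3 3xTg-AD libraries of the members and at 10.4 to 21.5 CPM in WT. Cfap54, Zfp943 and Gm49980 had log2 fold changes of -1.22, -1.66 and -4.80. With at least 3 Esr1 UMIs the calls of Cfap54 and Zfp943 were lost (edgeR adjusted p = 0.0834 and 0.232), without 3xTg-AD replicate 5 those of Cfap54 (0.0597) and Gm49980 (0.0923), and with DESeq2 that of Gm49980 (adjusted p = 0.0662). At 12 months, Bet1, a protein of transport between endoplasmic reticulum and Golgi, was lower, at 42.9, 60.5 and 55.4 CPM in WT and 9.93, 4.90 and 16.5 CPM in 3xTg-AD members (log2 fold change -2.18, edgeR adjusted p = 0.0129). Rnf121 and Ccl27a were lower too, with log2 fold changes of -1.21 and -3.51, and Gm15594 was higher, with 1.96. The 12-month calls were fragile. Without 3xTg-AD replicate 2 none of Bet1, Rnf121, Ccl27a and Gm15594 passed (edgeR adjusted p = 0.0885, 0.0885, 0.126 and 0.126). Without 3xTg-AD replicate 6, Rnf121 (edgeR adjusted p = 0.056), Ccl27a (0.053) and Gm15594 (0.0832) did not pass, and Ccl27a and Gm15594 also did not without any 1 of replicates 8, 10 and 12 (0.0518 to 0.162). Ccl27a did not pass without WT replicate 4 either (edgeR adjusted p = 0.0817). With at least 3 Esr1 UMIs Bet1, Rnf121 and Gm15594 did not pass (edgeR adjusted p = 0.166, 0.261 and 0.178), and Gm15594 did not with all 12 libraries in 1 fit (0.0887) or without glial or vascular marker UMIs (0.0687).

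**Figure D5:**
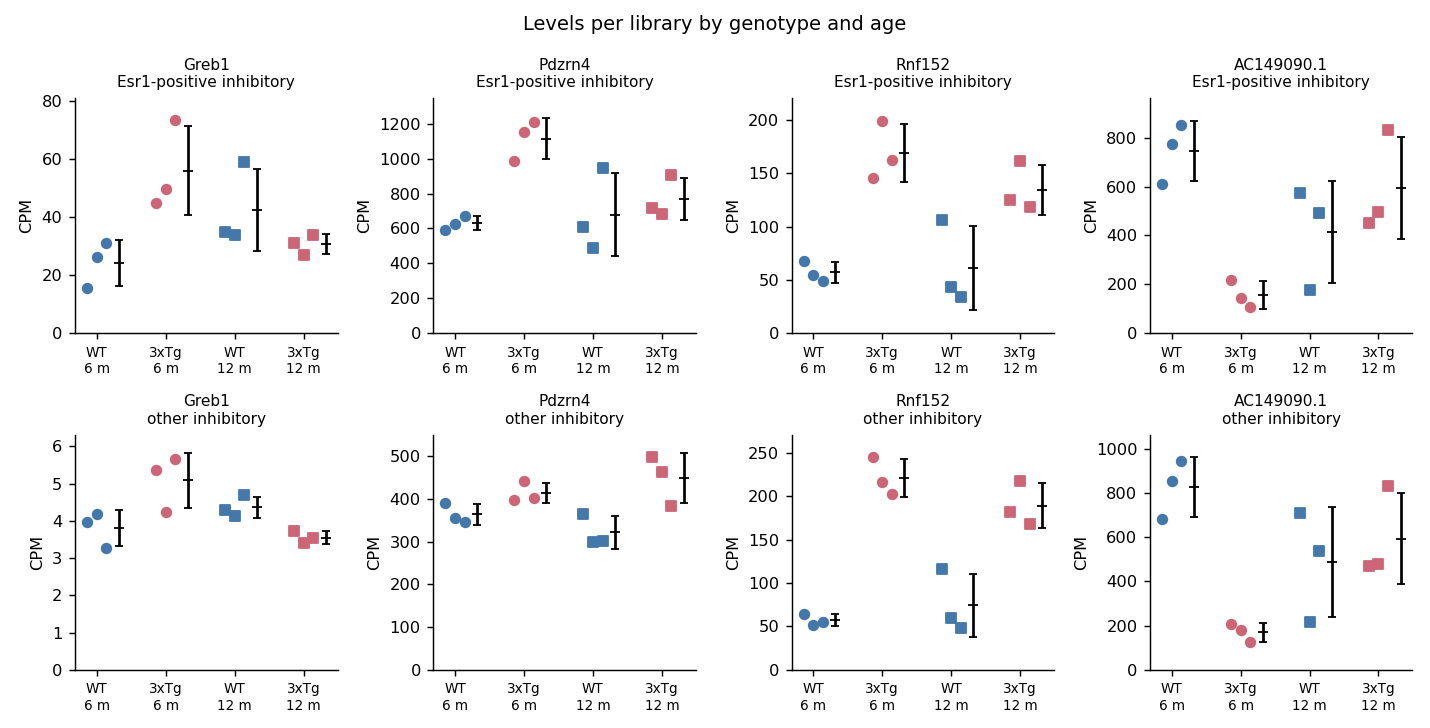
CPM (y axis, linear, from 0) of Greb1, Pdzrn4, Rnf152 and AC149090.1 in the members (top) and in the other inhibitory nuclei of the same libraries (bottom), for 3 libraries of each group (points, x axis), with mean and SD in black. At 6 months Greb1 ranged from 15.5 to 31.1 CPM in WT and from 44.8 to 73.5 CPM in 3xTg-AD members, and AC149090.1 differed in both sets of nuclei.

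Age was compared within each genotype. In WT members 0 of 9921 tested genes were called by edgeR (0%) and 0 by DESeq2, while 495 had an unadjusted p under 0.05, where 496 are expected without any difference. The libraries of the 2 ages did not overlap for 9.17% of the genes. In 3xTg-AD members 1 of 9908 genes was called (0.0101%), and 10.6% did not overlap. This gene was AC149090.1, at 219, 144 and 105 CPM at 6 months and 451, 494 and 833 CPM at 12 months, with a log2 fold change of 1.97 (SE 0.224, edgeR adjusted p = 0.00108). Greb1 had a log2 fold change of 0.86 with age in WT (edgeR adjusted p = 0.863) and of -0.86 in 3xTg-AD members (edgeR adjusted p = 0.469). The 2 genotype comparisons and the 2 age comparisons share libraries and are not independent.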

How the data were processed

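Nuclei of 12 libraries were analysed from UMI count matrices deposited by the authors, who aligned reads to mm10 with Cell Ranger 6.1.1 and counted UMIs per gene before ambient RNA was removed. The library (1 mouse) was the unit of all tests. The rule was applied to the raw counts of nuclei with 500 to 10000 genes. Library totals were 79177051 to 128323908 UMIs. Members and gene lists were chosen with earlier results of these data known. Counts were summed per library and set. The 7 genes of the rule, Prlr and Greb1 were left out of the comparisons between sets of nuclei. edgeR 4.0.16 (TMM, filterByExpr, quasi-likelihood test, Benjamini-Hochberg adjustment) was run in R 4.3.3, with the library as a block between sets of nuclei, and DESeq2 1.42.0 was an alternative. Genes were named from the lists, as the 5 called genes with the smallest adjusted p in each direction and no overlap between groups (or the same sign in every library), or as the 10 with the largest fold at 20 CPM or more. Subset genes were described after their values were seen. Some genes that met these rules are not reported here. The tests were checked on simulated counts. No doublet caller was run. Gene positions are from the GRCm38 annotation.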

Additional observations from a re-analysis of the deposited data

Results flagged for a closer look

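The genotype effect on AC149090.1 in the members differed between the ages by 2.77 on the log2 scale (SE 0.433, edgeR adjusted p = 0.0237, interaction term over 12 libraries). The effect was -2.25 at 6 months, where the groups did not overlap, and 0.52 at 12 months, where they did. The members of WT library 8 stood at 178 CPM and those of the other 12-month WT libraries at 574 and 494 CPM. With DESeq2 the adjusted p was 0.264, and with 1 library left out it ranged from 0.00164 to 0.193, so that the call was lost in 5 of 12 cases. The other inhibitory nuclei of the same libraries had 123 to 206 CPM in 3xTg-AD and 682 to 948 CPM in WT at 6 months, and the cause was not tested.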

How the results depend on the processing

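The difference in the share of members between genotypes (-0.00453 percentage points) changed sign to 0.000144 after thinning and to 0.0115 in members without glial or vascular marker UMIs, and ranged from -0.0615 to 0.0398 with 1 library left out. The difference between ages became 0.125 of inhibitory nuclei and 0.0387 after thinning, and ranged from -0.105 to -0.00348 with 1 library left out. Calls higher and lower, without a filter on low counts, were 50 and 62 for genotype at 6 months, 44 and 32 at 12 months, 18 and 24 for age in WT, 24 and 22 for age in 3xTg-AD, 19 and 17 for the interaction, 171 and 448 against other inhibitory nuclei and 136 and 188 against glutamatergic nuclei. With DESeq2 they were 6 and 6 at 6 months, and 0 were higher for the interaction. In members without glial or vascular marker UMIs (1148 of 1323) they were 5 and 8 at 6 months, with 1 higher at 12 months, 2 higher for age in 3xTg-AD and 467 lower against other inhibitory nuclei. The other inhibitory nuclei were not filtered for these markers. With at least 3 Esr1 UMIs they were 1 and 1 at 6 months and 0 and 0 at 12 months, with 2 higher for the interaction. With all 12 libraries in 1 fit, 8 were lower at 6 months and 5 at 12 months.

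With 1 library left out, calls ranged from 6 to 15 higher and 3 to 14 lower at 6 months, 0 to 5 and 0 to 3 at 12 months, 0 to 1 and 0 to 2 for age in WT, 1 to 3 and 0 to 2 for age in 3xTg-AD, 0 to 2 and 0 to 1 for the interaction, 100 to 117 and 257 to 314 against other inhibitory nuclei, and 40 to 50 and 68 to 74 against glutamatergic nuclei. At 6 months the lower calls were 3 without replicate 5, 5 without 9 and 9 without 11, and the higher calls 6 without 5 or 11. At 12 months the calls were 0 and 0 without replicate 2 and 0 and 1 without 6. Age in WT gave 1 and 2 without replicate 8. Small fold changes changed sign at 12 months. App (-0.01) became 0.00351 without a filter, 0.0475 without glial markers, 0.0193 at 3 Esr1 UMIs, 0.0392 under another planned choice of members, and -0.0529 to 0.0332 with 1 library left out. Prlr became 0.0397 without glial markers and -0.138 to 0.0875 with 1 library left out, Mapt became -0.0105 and -0.00862 without glial markers and at 3 Esr1 UMIs, and Thy1 became -0.0566 at 3 Esr1 UMIs. Prlr with age in 3xTg-AD became -0.00929 under another planned choice of members and -0.0429 to 0.174 with 1 library left out. The causes were not tested. Greb1 passed the threshold without a filter for age in 3xTg-AD (edgeR adjusted p = 0.0209) and for the interaction (0.000403). A planned removal of possible doublets left 65 of 1323 members and could not be run, and the marker-based alternative was chosen after seeing the data. Genotype and age groups were compared without pairing, because the labels record no pairing of the mice. Sets of nuclei were compared within libraries. Close to the fold limit of 1, Ntsr1 had 0.998 without a filter and 0.97 without WT replicate 12, Baiap3 0.995 without a filter and Bcl11b -0.98 without glial markers. Each library held 78 to 154 members with 675914 to 1413867 UMIs.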
